A study of Mus musculus with 8 samples.

Results

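The genes described here are the microRNA precursor genes whose array signal in the mouse left ventricle reached the middle of the measured range. They are the genes named Mir followed by a digit, or Mirlet7, that a single probe set annotation names, without the host transcripts named as such (hg). A gene was kept if the highest of its 4 group means was at least 5.19 on the log2 intensity scale, the median of all deposited values, and the probe set with the highest mean stood for a gene that had several. This left 119 of 478 microRNA genes measured, or 24.9%, against 62.5% of all 22180 genes measured. The members were thus selected on the measured group means of these arrays, so their signals are a description, and the threshold is not a test of whether an RNA was present.

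The study followed the heart through pregnancy in C57BL/6 mice of 3 to 4 months of age. It had 2 arrays for each of 4 reproductive states: non-pregnant females in diestrus, the quiet phase of the estrous cycle and the reference named in the series design; day 12 of pregnancy; day 19 of pregnancy, for which the protocol in the labels gives day 18 or 19; and day 1.5 post-partum. Total RNA (100 ng) from a piece of left ventricle was hybridised to whole-transcript expression arrays, with a single colour per array. Nothing in the labels says which animal a sample came from, or whether a sample was pooled. The p-values below therefore measure only the spread between these samples, which may be technical.

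MicroRNAs are short RNAs that are cut from a hairpin within a longer primary transcript. The nuclear enzyme Drosha releases the hairpin, exportin carries it to the cytoplasm, Dicer trims it, and an Argonaute protein holds the mature strand, whose seed near the 5′ end pairs with target messages and lowers their output. The heart is known for a few very abundant ones, among them miR-1, miR-133, miR-208 and miR-499. Whole-transcript arrays of this kind carry probes on the precursor and sample long RNA, so the values below are signals of the precursor locus or of transcripts that cross it. They are not levels of the mature microRNA.

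Facts of the arrays bear on all comparisons. All 7 ventricular muscle markers measured lay between 8.46 and 12.96 log2, so heart muscle was present on every array. These levels do not show how much atrial tissue a sample held. Myl2 lay between 8.46 and 8.87. The signal of the atrial marker Myl7 exceeded that of Myl2 on day 12 replicate 3 (10.04) and day 19 replicate 1 (11.76), and lay below it on the other arrays. These are different probe sets, so the order is one of signals and not of RNA amounts. The mean level of 5 atrial markers (among them Myl7, Sln and Nppa) was 3.07 log2 above the diestrus mean on the day 19 array with replicate number 1, and 0.54 below it on the other day 19 array, replicate 2. Atrial markers varied within the earlier states too: they were 1.17 above that mean on day 12 replicate 3 and 0.77 below it on day 12 replicate 2, the diestrus arrays lay 0.56 to either side of it, and the post-partum arrays 0.79 and 0.68 below. Myl7 alone gave 4.69 and 10.04 on day 12, against 5.12 and 8.24 in diestrus. Day 19 replicate 2 stood apart in other markers: its 9 macrophage markers were on average 1.43 above the diestrus mean, 5 MHC class II markers 2.43 and 5 lymphocyte markers 1.06, while the other post-diestrus arrays lay between -0.06 and 0.44 for macrophage and between -0.76 and 0.19 for MHC class II markers. Day 19 replicate 2 was also the lowest of the 8 arrays in fibroblast (-0.69), vessel wall (-0.51) and endothelial (-0.38) markers. It was the highest in 3 red cell markers (0.78). The part of these marker differences in the results below was not tested, and each result rests on both arrays of a state unless it says otherwise. In bulk tissue, fewer cells of a type and less RNA per cell cannot be told apart.

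Mature sequences of 99 of the 119 genes were found in RefSeq (build GRCm38.p6), 159 sequences with 143 distinct seeds. The build behind the array is not given in the sources used here. Sequences are written 5′ to 3′ with the seed, bases 2 to 8, in capitals. The first set belongs to the members with the largest signals, most of which are little studied microRNAs; the table holds no mature strand for Mir5099 and Mir449b, which lead the order.
mmu-miR-692 (Mir692-1, chromosome 17, minus strand): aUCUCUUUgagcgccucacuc
mmu-miR-5135 (Mir5135, chromosome 12, minus strand): aGGUCUAGguggcaagggcguccu
mmu-miR-1195 (Mir1195, chromosome 17, minus strand): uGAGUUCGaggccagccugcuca
mmu-miR-680 (Mir680-2, chromosome X, plus strand): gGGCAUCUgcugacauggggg
mmu-miR-1956 (Mir1956, chromosome 3, plus strand): aGUCCAGGgcugagucagcgga
mmu-miR-1954 (Mir1954, chromosome 2, plus strand): aCUGCAGAgugagacccuguu
mmu-miR-5125 (Mir5125, chromosome 17, plus strand): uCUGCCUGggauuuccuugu
mmu-miR-5123 (Mir5123, chromosome 4, minus strand): uGUAGAUCcauaugccauggugug
No seed is shared among these 8. The genes Mir692-1 and Mir680-2 each have a mature strand that 3 genes of the reference share, so a signal at one copy may hold RNA of another.

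The second set holds the families that more than 1 member belongs to, since 13 seeds were shared. The miR-181 seed ACAUUCA was the most shared, with 4 member genes. Mir181b-1 and Mir181b-2 encode an identical 5p strand.
mmu-miR-181b-5p (Mir181b-1 and Mir181b-2): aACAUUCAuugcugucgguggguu
mmu-miR-181c-5p (Mir181c): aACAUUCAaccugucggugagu
mmu-miR-181d-5p (Mir181d): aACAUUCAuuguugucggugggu
mmu-miR-15a-5p (Mir15a): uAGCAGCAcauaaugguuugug
mmu-miR-16-5p (Mir16-1): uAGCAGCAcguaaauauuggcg
mmu-miR-99a-5p (Mir99a): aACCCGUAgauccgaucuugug
mmu-miR-99b-5p (Mir99b): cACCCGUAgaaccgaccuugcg
mmu-let-7a-5p (Mirlet7a-1): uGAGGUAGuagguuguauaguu
mmu-let-7c-5p (Mirlet7c-1): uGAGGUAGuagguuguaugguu
mmu-miR-7a-5p (Mir7-1): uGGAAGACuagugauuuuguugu
mmu-miR-7b-5p (Mir7b): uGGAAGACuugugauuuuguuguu
mmu-miR-103-3p (Mir103-2): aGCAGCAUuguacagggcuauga
mmu-miR-107-3p (Mir107): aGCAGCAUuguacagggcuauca
The other shared seeds were those of miR-680 (3 genes), miR-194, miR-219a and the pair Mir674 and Mir3473d, besides the opposite strands of Mir99a and Mir99b, of Mir103-2 and Mir107, and of the miR-181b genes.

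The third set is the one a reader would look for in a heart and that the threshold left out: the microRNAs carried by the myosin heavy chain genes. The seeds of miR-208a and miR-208b are identical, and that of miR-499 begins with the same bases.
mmu-miR-208a-3p (Mir208a, in Myh6, chromosome 14, minus strand): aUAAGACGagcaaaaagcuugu
mmu-miR-208b-3p (Mir208b, in Myh7, chromosome 14, minus strand): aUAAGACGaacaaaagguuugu
mmu-miR-499-5p (Mir499, in Myh7b, chromosome 2, plus strand): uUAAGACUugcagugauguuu

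Signals of the 119 members ran from 4.72 for Mirlet7c-1 to 12.28 for Mir5099, as means over the 8 arrays, with a median of 6.12. The median over all 478 microRNA genes was 3.81 and that over all genes measured 5.71. In 85 members every group mean reached the threshold, and 34 reached it only in some groups. The highest group mean was the day 19 one in 46 members, the day 12 one in 37, the post-partum one in 24 and the diestrus one in 12. A probe set's signal depends on its probes as well as on its RNA, so the order of the members is one of signals and not of RNA amounts.

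Mir5099 gave 12.07 and 12.08 log2 in diestrus, 12.09 and 12.57 on day 12, 12.41 and 12.38 on day 19, and 12.23 and 12.43 post-partum. Mir449b, a gene of the miR-449 family known from ciliated cells, gave 11.73 and 11.51 in diestrus, 11.64 and 11.78 on day 12, 11.67 and 11.77 on day 19, and 11.75 and 11.76 post-partum. Both stayed near the top of the array's range in every sample, and their SD over the 8 arrays was 0.19 and 0.09. Mir692-1 followed with 9.73 to 10.11. The other 7 of the 10 largest signals, Mir5135, Mir1195, Mir680-2, Mir1956, Mir1954, Mir5125 and Mir5123, averaged 8.01 to 8.48. Mir1954 lies within Eng, a co-receptor of vessel endothelium, Mir1956 within Eif4e, the cap-binding translation factor, Mir5125 within Srrm2, a splicing protein, and Mir5123 within B4galt1, a sugar transferase. Mir5123 varied most of the 10, with an SD of 0.47, and Mir449b and Mir1954 least, with 0.09 each.

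**Figure D1:**
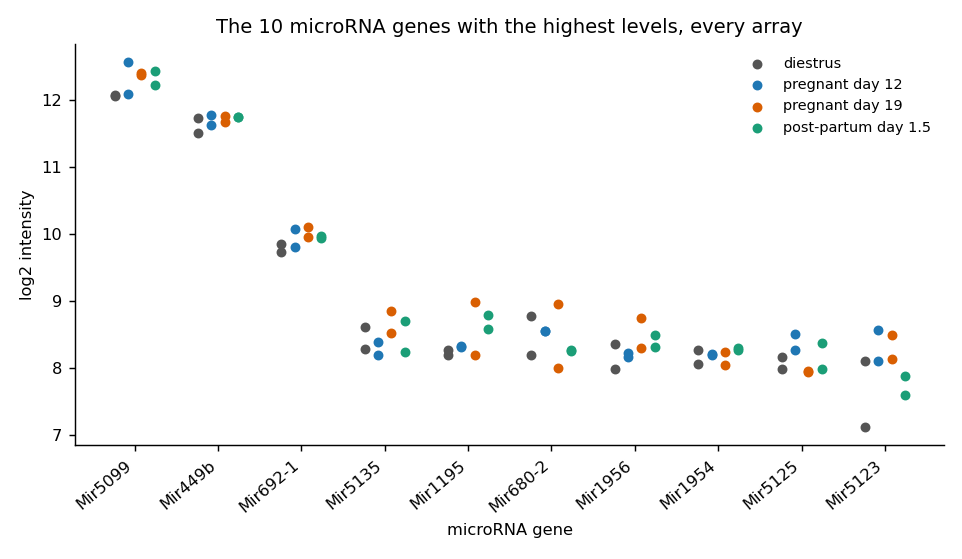
Log2 intensity of the 10 microRNA genes with the largest mean signals on each of the 8 arrays, with 2 points per state in the order diestrus, day 12, day 19 and post-partum. Mir5099 and Mir449b sit at 11.51 or more on every array, and the 2 diestrus arrays of Mir5123 are 0.98 apart.

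The microRNA genes with G and C rich hairpins had larger signals. Hairpins were found for 400 of the 478 genes, or 83.7%. Of the 46 genes whose hairpin was at least 60% G and C, 35 were members (76.1%), and their median signal was 5.68 log2. At 50 to 60% the share was 26 of 133 (19.5%), at 40 to 50% 25 of 160 (15.6%), and under 40% 4 of 61 (6.56%), with medians of 4.07, 3.20 and 2.44. Over the 400 genes Pearson's r between G and C content and signal was 0.51 and Spearman's rho 0.54, a description over genes that share the same 8 arrays. Array probes with more G and C bind more strongly at large, and how much of this pattern is hybridisation was not tested.

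Hairpins show both ends of that relation. They are printed here with the mature strands in capitals. Mir1199, the member richest in G and C (74.8%), averaged 6.89 log2, and lies on chr8:84011515-84011633, minus strand. Mir703, the poorest (31.2%), averaged 6.12 and lies on chr5:98475556-98475664, minus strand. Mir5099, with the largest signal, has only 37.8% G and C (chr12:36816205-36816278, plus strand), and Mir5123 (47.0%, chr4:40850056-40850138, minus strand) is built of repeats of a short unit. The hairpin of Mir208b (45.5%, chr14:54975700-54975776, minus strand) stands for the muscle microRNAs below the threshold.
Mir1199: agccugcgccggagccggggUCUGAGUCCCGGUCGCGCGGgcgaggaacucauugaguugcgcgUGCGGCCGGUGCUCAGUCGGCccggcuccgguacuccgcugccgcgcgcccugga
Mir703: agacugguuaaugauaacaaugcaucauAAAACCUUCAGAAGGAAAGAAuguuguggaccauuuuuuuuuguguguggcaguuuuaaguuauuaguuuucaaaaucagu
Mir5099: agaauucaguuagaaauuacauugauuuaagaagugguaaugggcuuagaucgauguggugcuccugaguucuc
Mir5123: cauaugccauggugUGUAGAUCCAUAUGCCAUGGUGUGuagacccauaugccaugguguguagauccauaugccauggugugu
Mir208b: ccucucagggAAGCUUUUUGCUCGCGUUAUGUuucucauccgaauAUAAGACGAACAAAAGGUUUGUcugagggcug

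**Figure D2:**
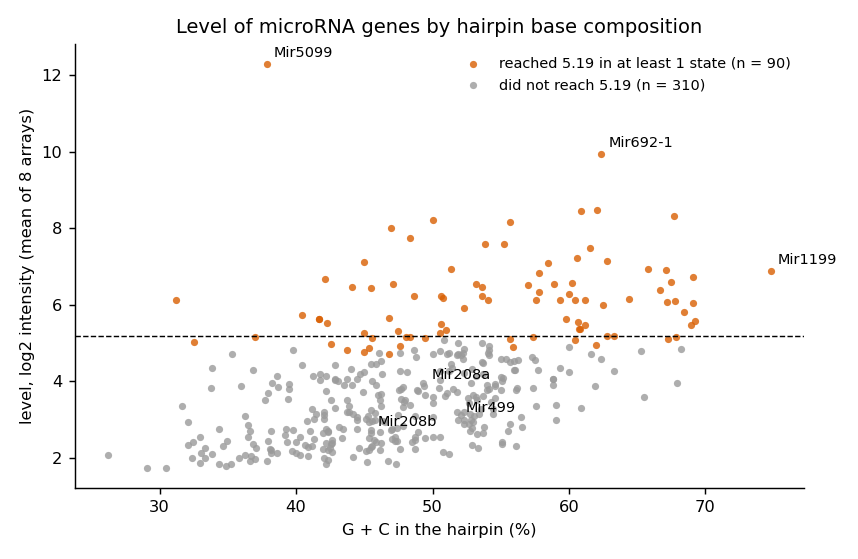
Mean log2 intensity over 8 arrays (vertical axis) against the percentage of G and C in the hairpin (horizontal axis) for 400 microRNA genes, with the 90 members in orange and the 310 others in grey; the dashed line is the threshold of 5.19. Members make up 76.1% of the genes at 60% G and C or more, and Mir5099 stands far above the other genes of its base composition.

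Across the states, no microRNA gene passed the test. Each state was compared with diestrus and post-partum with day 19, in a linear model over all 8 arrays (limma, two-sided, Benjamini-Hochberg adjustment over 13872 genes tested). At an adjusted p under 0.05, 0 of 119 members and 0% of all genes tested were called on day 12, on day 19 and post-partum against diestrus, and post-partum against day 19; the F test over the 4 states likewise called 0 members and 0% of all genes. The smallest adjusted p among members was 0.98 on day 12, 0.66 on day 19, 0.65 post-partum and 0.59 for post-partum against day 19. The median standard error of a difference was 0.17 log2.

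At an unadjusted p under 0.05, the members were called more often than the genes at large. The counts were 13 of 119 (10.9%) on day 12 against 2.31% of all genes tested, 18 (15.1%) on day 19 against 7.29%, 12 (10.1%) post-partum against 6.62%, and 12 (10.1%) for post-partum against day 19, where the background was 8.25%. The F test gave 20 (16.8%), with 5.81% of all genes. These shares are not read as support, because 34 members passed the threshold only through the groups in which they were high. The members were also noisier between the 2 arrays of a state: the SD of the pair difference was 0.45 in diestrus, 0.33 on day 12, 0.49 on day 19 and 0.47 post-partum, against 0.26, 0.24, 0.56 and 0.33 for all genes tested, so that day 19 alone had a lower value for members.

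More members were higher than lower in each state than in diestrus. On day 12, 84 members were higher and 35 lower than in diestrus, with a median difference of 0.10 log2, while 55.1% of all genes were higher, with a median of 0.02. On day 19, 79 were higher and 40 lower (median 0.11), against 44.5% of all genes higher (median -0.03). Post-partum, 72 were higher and 47 lower (median 0.06), with 49.4% of all genes higher. Against day 19, the post-partum arrays had 45 members higher and 74 lower (median -0.09), with 52.3% of all genes higher. Among the 85 members above the threshold in every state the medians were 0.09, 0.13, 0.10 and -0.09 in the same order. The counts hold the 34 members that reached the threshold only in some states, so they are a description and support nothing about the members. Medians over all genes above the threshold in every state were not computed, so those of the 85 members are a description too.

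The day 19 median depended on the array. The median member was 0.23 above its diestrus mean on the day 19 array with the immune markers, replicate 2, and 0.05 above it on the array with the atrial markers, replicate 1; both day 12 arrays were above, at 0.08 and 0.13, and the post-partum arrays lay at 0.13 and -0.01. The 2 diestrus arrays lay 0.02 to either side of their mean. Without day 19 replicate 1 the day 19 median was 0.23, and without day 19 replicate 2 it was 0.05. The median difference of post-partum from day 19 was -0.16 without day 19 replicate 1 and 0.01 without replicate 2. In each of these fits day 19 is a single array, assumed to vary like the arrays of the other groups. A test in them holds no day 19 replicate. The array left without replicate 1 is the one with the raised immune markers.

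**Figure D3:**
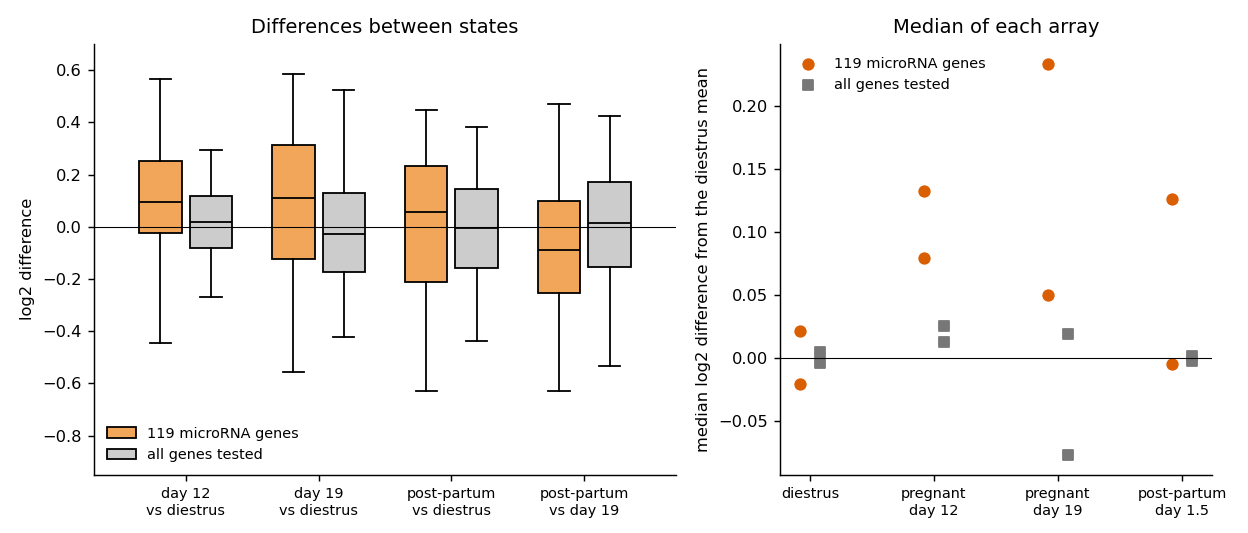
Left, log2 differences of the 119 microRNA genes (orange) and of all 13872 genes tested (grey) for the 4 comparisons; boxes hold the middle 50% of genes, the line is the median and whiskers run from the 5th to the 95th percentile. Right, the median log2 difference of each array from the diestrus mean, for members (circles) and all genes tested (squares); the 2 day 19 arrays differ most, at 0.05 and 0.23.

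The 2 arrays of a state lay wholly above or below the 2 arrays compared in some members. On day 12, 26 members lay wholly above diestrus (21.8%, with a background of 21.7% of all genes) and 10 wholly below (8.4%, background 15.6%). On day 19, 38 lay above (31.9%, background 16.4%) and 11 below (9.24%, background 20.4%). Post-partum, 28 lay above (23.5%, background 21.1%) and 19 below (16%, background 21.7%). Post-partum against day 19, 13 lay above (10.9%, background 19%) and 27 below (22.7%, background 14.3%). The day 12 and post-partum counts of higher members were near the background. These counts hold the 34 members that reached the threshold only in some states, and they support nothing about the members. Of the 85 members above the threshold in every state, 17 lay above and 4 below diestrus on day 12, and 29 and 4 on day 19. Post-partum the counts were 22 and 12, and 9 above and 19 below for post-partum against day 19. The share over all genes above the threshold in every state was not computed, so these counts too support nothing about the members.

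Single members differed by up to 1.37 log2. Differences beyond 0.5 log2 in either direction were found in 15 members on day 12, 22 on day 19, 12 post-partum and 15 for post-partum against day 19, or 12.6%, 18.5%, 10.1% and 12.6% of members, with 1.92%, 8.37%, 5.28% and 8.45% of all genes tested in the same order. The 34 members that reached the threshold only in some states are in these counts, so the shares are a description. The 5 largest differences in each direction and comparison belonged to 27 genes, of which 17 had reached the threshold only in some states. The 10 that had reached it in every state were Mir5123, Mir1981, Mir101c, Mir3110, Mir375, Mir669m-1, Mir212, Mir1195, Mir505 and Mir1933. None of the 40 differences passed the adjusted test. Most of the single differences named below and in the machinery list depended on 1 array: with each array left out in turn, 34 of 56 moved by more than 1.5 times or changed sign.

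Mir181b-1, a gene of the miR-181 family known for its role in lymphocyte development, had the smallest p of the members in limma's moderated F test over the 8 arrays (adjusted p = 0.70). It gave 5.10 and 5.15 log2 in diestrus, 5.25 and 5.14 on day 12, 4.57 and 4.58 on day 19, and 4.00 and 4.41 post-partum. Both later states lay wholly below both earlier ones. The post-partum difference from diestrus was -0.92 ± 0.16 (SE, adjusted p = 0.65) and the day 19 difference -0.55 ± 0.16 (adjusted p = 0.66). This gene is also the member closest to the threshold, which it reached on day 12 only. The other copy, Mir181b-2, gave 5.75 and 5.11 in diestrus, 5.53 and 5.27 on day 12, 4.98 and 4.62 on day 19, and 5.58 and 5.20 post-partum. It was 0.63 ± 0.25 log2 lower than diestrus on day 19 and lay among the diestrus values post-partum, 0.59 ± 0.25 above day 19 (adjusted p = 0.66 and 0.59). Mir181c and Mir181d, neighbours on chromosome 8 with the same seed, ranged from 6.04 to 6.49 and from 6.81 to 7.17, and the largest difference of either from diestrus was 0.24.

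Mir3471-1 and Mir375 stood out post-partum. Mir375 reached the threshold in every state, and Mir3471-1 in all but post-partum. Mir3471-1 gave 5.97 and 5.67 in diestrus, 6.17 and 6.10 on day 12, 6.01 and 5.87 on day 19, and 4.74 and 5.24 post-partum, where both arrays lay below all the others. Its post-partum difference was -0.83 ± 0.19 from diestrus and -0.95 ± 0.19 from day 19 (adjusted p = 0.72 and 0.59). Mir375, a gene known from pancreatic islets, differed in the other direction: 5.68 and 5.83 in diestrus, 6.08 and 5.56 on day 12, 6.08 and 6.00 on day 19, and 6.69 and 6.55 post-partum. Both post-partum arrays lay above the other 6, 0.87 ± 0.19 above diestrus (1.83-fold) and 0.58 ± 0.19 above day 19 (adjusted p = 0.72 and 0.59). A mature strand of each is printed here; for Mir375 it is the 5p strand, not the 3p strand that its islet role rests on.
mmu-miR-3471 (Mir3471-1, chromosome 4, minus strand): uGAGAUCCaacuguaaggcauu
mmu-miR-375-5p (Mir375, chromosome 1, minus strand): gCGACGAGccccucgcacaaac

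Mir122 and Mir196a-1 were highest in diestrus. Mir196a-1, like Mir18 below, reached the threshold in diestrus only, narrowly missing it post-partum. The selection itself thus favours a high diestrus value in these genes. Mir122 reached the threshold in every state but day 12. Mir122, the dominant microRNA of liver, gave 6.06 and 6.48 in diestrus, 4.63 and 5.17 on day 12, 5.18 and 5.67 on day 19, and 6.19 and 5.64 post-partum. Its day 12 difference of -1.37 ± 0.28 was the largest of any member (adjusted p = 0.98), and on day 19 the difference was -0.85 ± 0.28 (adjusted p = 0.66). Mir196a-1, which lies in a Hox cluster, gave 5.34 and 6.01 in diestrus, 4.87 and 4.87 on day 12, 4.74 and 5.01 on day 19, and 5.23 and 5.15 post-partum. All 6 later arrays lay below both diestrus arrays, by 0.80 ± 0.22 on day 12 and 0.79 ± 0.22 on day 19 as differences of the means. Mir18, a gene of the miR-17 cluster that is known for driving proliferation, was also lower in every later state, at -0.64, -0.66 and -0.94, with 5.23 and 5.55 in diestrus, 4.47 and 5.02 on day 12, 4.995 and 4.45 on day 19, and 4.06 and 4.82 post-partum.
mmu-miR-196a-5p (Mir196a-1, chromosome 11, plus strand): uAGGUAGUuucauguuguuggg

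Mir212, which shares its seed with miR-132 and is known to act in cardiac hypertrophy in mice, was among the higher members late. It gave 5.60 and 5.21 in diestrus, 5.24 and 5.34 on day 12, 5.79 and 5.66 on day 19, and 5.89 and 5.85 post-partum. All 4 later arrays lay above all 4 earlier ones, 0.32 ± 0.16 above diestrus on day 19 and 0.47 ± 0.16 post-partum (adjusted p = 0.66 and 0.72). Mir132, its neighbour on chromosome 11, stayed below the threshold at 3.10 to 3.83. In a limma fit over all genes with no threshold, the Mir132 difference from diestrus was 0.35 ± 0.19 on day 19 and 0.38 ± 0.19 post-partum (adjusted p = 0.70 and 0.79).
mmu-miR-212-3p (Mir212, chromosome 11, plus strand): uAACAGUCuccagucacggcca

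**Figure D4:**
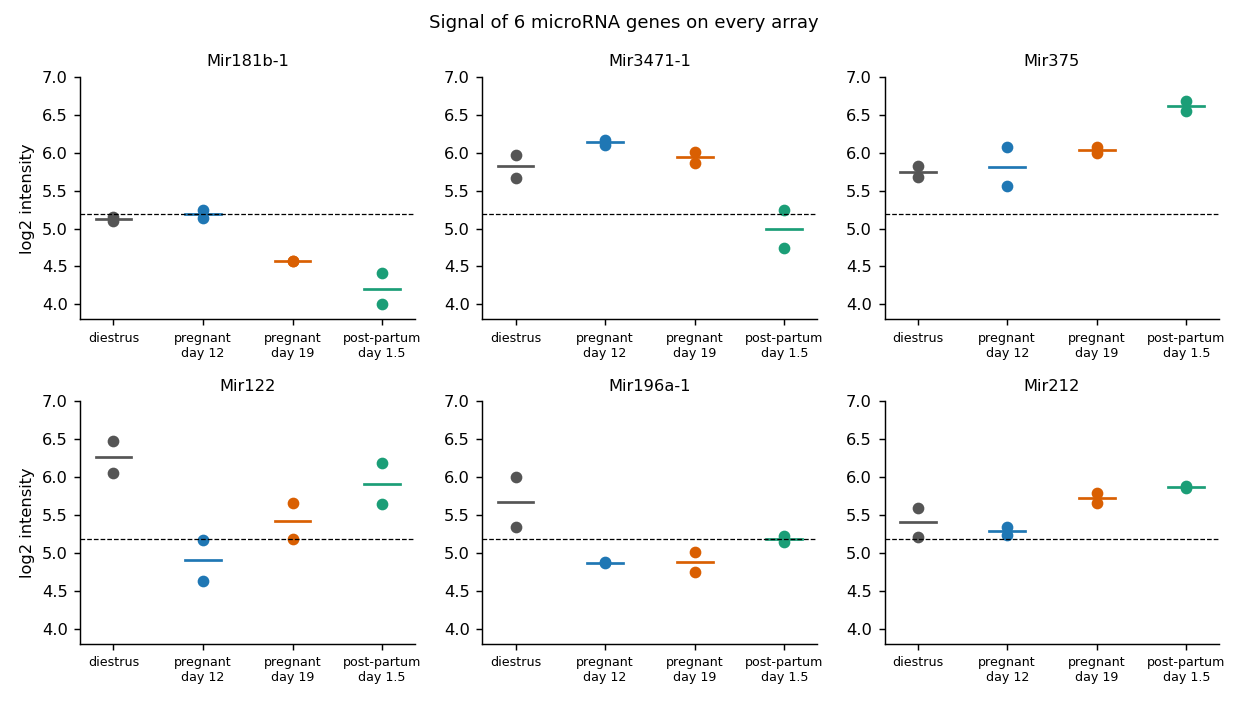
Log2 intensity of 6 microRNA genes on each of the 8 arrays by state, with short bars for the means of 2 arrays and a dashed line at the threshold of 5.19. Mir181b-1 is lower and Mir212 higher in the 2 later states, and Mir3471-1 is lower and Mir375 higher post-partum. Mir122 and Mir196a-1 are highest in diestrus. None passed the adjusted test, and of the 6 only Mir375 and Mir212 reached the threshold in every state.

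The other large differences were mostly found in 1 comparison. On day 12 Mir5120, within Pax5, was 0.99 ± 0.42 higher, with 5.74 and 5.35 on day 12 against 3.84 and 5.25 in diestrus. Mir188, within the chloride channel gene Clcn5, was 0.82 ± 0.27 higher (5.43 and 5.25 on day 12, against 4.40 and 4.63 in diestrus), Mir5103 0.78 ± 0.18 higher (5.81 and 5.66 on day 12, against 4.907 and 5.003 in diestrus), Mir677, within the ATP synthase gene Atp5b, 0.74 ± 0.23 higher, and Mir5123 0.73 ± 0.32 higher. Mir329 and Mir1981 were 0.74 and 0.69 lower than diestrus. In none of these 7 genes did the day 12 arrays overlap those of diestrus. They were picked for large differences, and only Mir5123 and Mir1981 reached the threshold in every state. The lack of overlap thus supports nothing about them. Of all genes tested, 21.7% lay wholly above diestrus on day 12 and 15.6% wholly below. Mir5123 gave 8.12 and 8.58 on day 12, against 8.10 and 7.13 in diestrus. Mir329 gave 5.54 and 4.69 on day 12, against 5.61 and 6.10 in diestrus.

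On day 19 Mir490, which lies within the muscarinic receptor gene Chrm2, was 0.87 ± 0.29 lower, with 4.62 and 4.08 on day 19 against 5.58 and 4.85 in diestrus. Mir194-2 was 0.61 ± 0.18 higher (5.41 and 5.55 on day 19, against 4.66 and 5.08 in diestrus), and Mir5123 and Mir5120 were 0.70 ± 0.32 and 0.85 ± 0.42 higher. Mir3110 was 0.69 ± 0.31 higher (6.20 and 7.09 on day 19, against 5.97 and 5.93 in diestrus), and Mir1839 0.67 ± 0.32 lower (5.22 and 4.26 on day 19, against 5.61 and 5.21 in diestrus). Of these, Mir5120 and Mir1839 overlapped between the states. Mir194-2 reached the threshold on day 19 only, so the selection itself favours its high day 19 value. Mir490, Mir5120 and Mir1839 also reached it only in some states. In Mir3110 and Mir1839 the second day 19 array lay farthest from diestrus, and without it their differences were 0.25 and -0.19. Mir5123 was 0.21 higher without diestrus replicate 3, and Mir5120 0.14 higher without diestrus replicate 2. Mir101c had the widest spread of all: 6.51 and 5.66 in diestrus, 6.23 and 6.48 on day 12, 5.77 and 8.09 on day 19, and 4.63 and 6.64 post-partum. Its difference on day 19 was 0.85 ± 0.82, and -0.31 without day 19 replicate 2.

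Post-partum Mirlet7c-1, of the let-7 family that is known to hold back proliferation, was 1.08 ± 0.47 lower than in diestrus, at 4.12 and 3.84 post-partum against 5.65 and 4.46 in diestrus. Mir1951 was 0.72 ± 0.22 lower than in diestrus and 0.83 ± 0.22 lower than on day 19, with 5.20 and 5.54 in diestrus, 5.20 and 5.75 on day 19, and 4.49 and 4.81 post-partum. Mir1195, one of the 10 largest signals, was 0.46 ± 0.24 higher, and Mir5120 and Mir669m-1 were 0.68 ± 0.42 and 0.50 ± 0.33 higher with arrays that overlapped diestrus. Against day 19, Mir3081 was 0.94 ± 0.27, Mir1933 0.75 ± 0.32 and Mir101c 1.29 ± 0.82 lower, and Mir1839 (0.63 ± 0.32), Mir505 (0.51 ± 0.38) and Mir122 (0.49 ± 0.28) higher. Of these 6, Mir505, Mir122 and Mir101c overlapped between the states. Mirlet7c-1, Mir1951, Mir5120, Mir3081, Mir1839 and Mir122 reached the threshold only in some states, so the selection favours their high values there.

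None of the listed muscle microRNAs was a member. Of 12 listed, 8 were measured, and their signals averaged 3.01 log2 for Mir1a-1, 4.44 for Mir133a-1, 3.20 for Mir133a-2, 4.55 for Mir133b, 2.25 for Mir206, 3.87 for Mir208a, 2.64 for Mir208b and 3.00 for Mir499. The single values nearest to membership were 5.41 and 4.65 for Mir133a-1 in diestrus, whose mean fell short of 5.19. On the other arrays it gave 4.18 and 4.63 on day 12, 4.50 and 3.84 on day 19, and 4.20 and 4.14 post-partum. In a fit over all genes with no threshold its difference was -0.63 ± 0.30 on day 12, and -0.86 ± 0.30 both on day 19 and post-partum (adjusted p = 1.00, 0.69 and 0.79). The mature forms of these genes, among them the abundant heart microRNAs named above, were not measured here.

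The myosin genes that hold the muscle microRNAs were read on the same arrays. Myh7, the slow myosin heavy chain known to return under load, gave 6.98 and 6.41 log2 in diestrus, 6.32 and 6.97 on day 12, 8.99 and 9.69 on day 19, and 7.56 and 6.88 post-partum. Both day 19 arrays lay above the other 6, by 2.65 ± 0.35 against diestrus (adjusted p = 0.50). Mir208b, inside it, gave 2.82 and 2.39 in diestrus, 2.78 and 2.43 on day 12, 2.55 and 2.29 on day 19, and 2.97 and 2.88 post-partum, with arrays that overlapped between day 19 and diestrus (difference -0.18 ± 0.20, adjusted p = 0.83). Myh6, the fast adult chain, stayed between 12.34 and 12.60. Mir208a inside it gave 4.54 and 3.66 in diestrus, 4.13 and 3.88 on day 12, 3.39 and 3.34 on day 19, and 4.07 and 3.92 post-partum, a day 19 difference of -0.74 ± 0.26 (adjusted p = 0.69). Myh7b lay between 6.26 and 6.81 and Mir499 between 2.72 and 3.23.

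**Figure D5:**
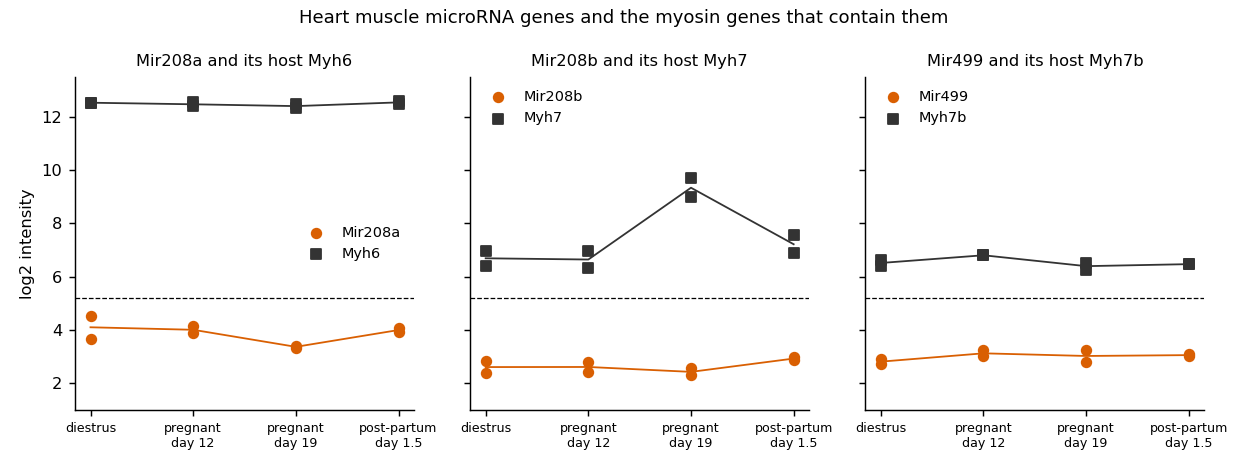
Log2 intensity of Mir208a, Mir208b and Mir499 (circles) and of the myosin genes that contain them, Myh6, Myh7 and Myh7b (squares), on each array by state; lines join the means of 2 arrays and the dashed line is the threshold of 5.19. Myh7 averages 9.34 on day 19 and 6.69 in diestrus, while Mir208b stays between 2.29 and 2.97 in all states.

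Differences of the members were at most weakly correlated with those of their hosts. By reference annotation, 45 members lay on the same strand within 43 measured host genes, and 42 of them in hosts that were tested. Across these 42 pairs the members' differences correlated with those of the hosts at r = -0.19 on day 12, 0.02 on day 19, -0.04 post-partum and 0.25 for post-partum against day 19, with the same sign in 25, 19, 21 and 24 pairs. These are descriptions over genes that share arrays and, within a pair, a locus. Mir677 was 0.74 higher on day 12 while Atp5b differed by 0.04. Mir490 was 0.87 lower on day 19, and Chrm2 0.25 lower.

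Some genomic clusters held members with differences of both signs, and others of 1 sign within a comparison. Clusters were runs of microRNA genes at most 10 kb apart in the reference. The largest with members was the rodent repeat cluster on chromosome 2, which lies in Sfmbt2 and holds Mir297, Mir466, Mir467 and Mir669 copies: 7 of 22 measured genes were members, with means of 5.73 to 7.10 against a median of 3.52 over all 22. On day 12, 5 of the 7 were higher and 2 lower, with a range of -0.46 (Mir297a-4) to 0.54 (Mir467c). Post-partum, 4 were higher and 3 lower, from -0.47 (Mir467e) to 0.50 (Mir669m-1). The copies are near-identical, so RNA of one can hybridise to the probes of another, and their separate values are uncertain. Mir466b-2 had 6 other probe sets with identical values on all arrays, averaging 3.45, against 5.79 for the one used.

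Chromosome 12 carries the imprinted microRNAs of the Meg3 and Rian region, expressed from the maternal chromosome. In one cluster Mir673, Mir665 and Mir540 were members, 3 of 7 measured. Mir673 gave 7.001 and 7.43 in diestrus, 7.31 and 7.25 on day 12, 7.49 and 8.07 on day 19, and 7.74 and 7.55 post-partum; all 4 later arrays lay above both diestrus arrays, 0.57 on day 19. All 3 were higher than diestrus on day 12 (0.07 to 0.40) and day 19 (0.05 to 0.57). In another cluster of the region 3 of 32 measured genes were members: Mir666, Mir329 and Mir667, with day 12 differences of 0.21, -0.74 and -0.25. A cluster between these held 2 members of 3 measured genes, Mir341 and Mir1188, both within Rian. Their day 19 differences were -0.17 and 0.41. The tested transcripts of the region, Meg3 and Rian, differed by -0.16 and -0.08 on day 19 (adjusted p = 0.79 and 0.95).

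Mir15a and Mir16-1, neighbours within Dleu2 on chromosome 14 that share a seed and are known to restrain the cell cycle of heart muscle in mice, gave 7.50 and 7.30 (Mir15a) and 6.70 and 6.48 (Mir16-1) in diestrus. On day 12 they gave 7.43 and 7.76, and 6.76 and 6.62. On day 19 Mir15a gave 7.42 and 6.94, and Mir16-1 6.50 and 5.99. Post-partum Mir15a gave 8.27 and 7.01, the widest pair of its states, and Mir16-1 6.36 and 6.23. Mir16-1 was 0.29 lower than in diestrus post-partum, with arrays that did not overlap, and Mir15a 0.24 higher, with arrays that did. Dleu2 was 0.20 lower. On chromosome 16, Mir99a and Mirlet7c-1 were both higher than diestrus on day 12 (0.50 and 0.19) and both lower on day 19 (-0.16 and -0.45) and post-partum (-0.36 and -1.08).

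Lists of microRNAs known from other cells of the heart held members at shares near the 24.9% of all microRNA genes measured. Of blood and immune microRNAs, 2 of 8 measured were members, Mir150 and Mir181b-1. Mir150, of mature lymphocytes, gave 5.06 and 4.85 in diestrus, 5.37 and 5.05 on day 12, 4.31 and 5.17 on day 19, and 5.26 and 4.90 post-partum. The value of 5.17 came from the array with the higher immune markers. Day 12 replicate 2 (5.37) and post-partum replicate 2 (5.26), without such raised markers, gave larger signals. The erythroid Mir144 and Mir451a were at 1.76 to 2.89 on all arrays. Of vessel and fibroblast microRNAs, 4 of 13 were members: Mir143, of smooth muscle, at 5.11 to 5.69; Mir23b at 5.73 to 6.78; Mir27a at 5.50 to 5.82; and Mir212. Of microRNAs tied to cardiac load or pregnancy, 4 of 21 were members: Mir16-1, Mir212, Mir30d at 5.12 to 6.07, and the hypoxia-linked Mir210 at 6.36 to 7.04.

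The genes that make and use microRNAs were expressed, with no member of the list past the test. Of 26 measured, 25 were tested, and Lin28b, a binder of let-7 precursors in early development, lay below the threshold at 3.53 to 3.86. Median differences were 0.02 on day 12 (15 higher, 10 lower), -0.04 on day 19 (10 and 15), 0.03 post-partum (14 and 11) and 0.08 for post-partum against day 19 (16 and 9). The smallest p-values on day 12 were those of Ncbp2, a nuclear cap-binding subunit (0.33 ± 0.19), and Ddx5, a helicase of the Drosha complex (0.30 ± 0.19). On day 19 they were those of Tnrc6a, a silencing partner of Argonaute (-0.35 ± 0.13), and Prkra, a Dicer partner (-0.57 ± 0.26).

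Ran, the small GTPase that powers nuclear export, gave 6.40 and 6.22 log2 in diestrus, 6.23 and 6.30 on day 19, and 6.97 and 6.57 post-partum. Post-partum it was 0.46 ± 0.17 above diestrus and 0.50 ± 0.17 above day 19 (adjusted p = 0.72 and 0.59). Tut7, which adds uridines to precursors, was 0.34 ± 0.16 below diestrus post-partum. Tnrc6c, like Tnrc6a a partner of Argonaute, was 0.52 ± 0.15 above day 19 post-partum, with 8.38 and 8.05 post-partum against 7.73 and 7.66 on day 19. The processing enzymes themselves lay within narrow ranges, Drosha at 7.96 to 8.23 and Dicer1 at 7.80 to 8.29, and Ago2, the cleaving Argonaute, at 8.68 to 9.07.

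The threshold cut through a dense part of the distribution. The 3 members just inside it were Mir181b-1, Mir1895 and Mir667, with highest group means of 5.195, 5.200 and 5.201. The 3 microRNA genes just outside were Mir3961, Mir669g and Mir425, at 5.178, 5.159 and 5.139. With the mean of all 8 arrays as the criterion in place of the highest group mean, 96 genes would have been members.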

How the data were processed

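The authors' processing notes, as the submitters gave them, name RMA and Affymetrix Expression Console, and the deposited numbers are on a log2 scale, 1 value for each probe set and array. No source used here states the array library or the genome build. RMA equalises the arrays, so a change in total RNA cannot be seen. The table held 34365 probe sets on 8 arrays. A platform annotation gave 1 symbol to 23521 of them, several to 1814 and none to 9030; 23328 were matched by Entrez identifier to the reference (GRCm38.p6, used for names, neighbours and hosts), and 0 symbols changed. The 136 sets that pair a microRNA with other symbols were left out.

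A gene was tested if a group mean reached 5.19 (13872 genes). limma 3.58.1 in R 4.3.3 fitted 1 mean per group to all 8 arrays, with 4 residual and 3.68 prior degrees of freedom, and was tested on simulated data. The number of arrays limits the precision. Members and lists were chosen with earlier results of these data known. Named genes were the muscle list, the 10 largest signals and the 5 largest differences per direction and comparison. Clusters of 3 or more members, genes beside the threshold, hosts of these and the 2 smallest p-values of the machinery list per comparison were named too. So were members called on day 12 or day 19 with the replicate number as a block. Members called only in the other comparisons of that fit were not all named. Other members appear as examples of a seed family, a neighbour pair or a list.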

Additional observations from a re-analysis of the deposited data

How the results depend on the processing

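Members and all genes past the adjusted threshold stayed at 0 in the 4 comparisons without the threshold on signal, with the threshold on the mean of 8 arrays, with the lowest-mean probe set, with only the 2 groups compared in the fit and with array medians centred. Array weights called 1 gene of all tested on day 12, and a trended, robust variance 1 gene for post-partum against day 19. Leaving out 1 array leaves a single array in that state, assumed to vary like the arrays of the other states. The counts that follow are of 119 members and of 13872 genes tested, and are not read as a result about the members. With 1 array left out at a time, the members called ranged from 0 to 0 on day 12, 0 to 7 on day 19, 0 to 0 post-partum and 0 to 3 for post-partum against day 19, and the genes called from 0 to 1, 0 to 1233, 0 to 3 and 0 to 872; the 7 and 3 members, and the 1233 and 872 genes, came without day 19 replicate 1. The members' median difference ranged from 0.06 to 0.13 on day 12, 0.049 to 0.23 on day 19, -0.01 to 0.13 post-partum and -0.16 to 0.006 for post-partum against day 19, with 0.0006 without post-partum replicate 4 and -0.01 post-partum against diestrus without post-partum replicate 2.

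Of 56 named differences under all alternatives, 877 values in all, 838 kept their direction and their side of the threshold, 33 passed it (26 under the replicate block and 7 without day 19 replicate 1) and 6 changed sign. Those were Mir101c on day 19 without day 19 replicate 2 (-0.31, in a range up to 2.01 with 1 array left out), Mir5120 post-partum without diestrus replicate 2 (-0.025, up to 1.39), Mir669m-1 post-partum (-0.0053, up to 1.01) and Mir505 for post-partum against day 19 (-0.055, up to 1.08), both without post-partum replicate 2, and Myh7 on day 12 without diestrus replicate 2 (0.24) and without day 12 replicate 2 (0.27, in a range from -0.37). None of the 6 was past the threshold in the fit over all arrays; the cause was not tested.

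With the replicate number as a block (replicate block), the calls among 119 members were 1 on day 12 (Mir122), 29 on day 19, 9 post-partum and 20 for post-partum against day 19. Among all 13872 genes tested they were 18, 2465, 599 and 2442 in the same order. The F test called 31 members and 2633 genes. For post-partum against day 19 the share of members was near that of all genes. These counts are not read as a result about the members. The members' medians were 0.20 on day 19 and 0.15 post-partum. On day 19 the members were Mir101c, Mir1190, Mir1191, Mir1195, Mir16-1, Mir18, Mir181b-1, Mir181b-2, Mir1839, Mir187, Mir194-1, Mir194-2, Mir1943, Mir1949, Mir1956, Mir2137, Mir297a-4, Mir3058, Mir3110, Mir345, Mir490, Mir5103, Mir574, Mir665, Mir673, Mir680-3, Mir703, Mir7b and Mir99a. Only 2 groups share both numbers, so this fit leaves 1 residual degree of freedom, and nothing says that a number marks a shared animal or day; deviations of the same-numbered diestrus and day 12 arrays correlated at 0.22. The samples share only a number.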

Other observations

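Mir191 had another probe set besides the one used, with signals of 4.52 to 5.34 and a mean of 4.91, below the threshold. Among the microRNA probe sets with a single symbol, 5 groups of probe sets held identical values on all 8 arrays, of 1 gene each: Mir466b-2 (6 probe sets), Mir669k (3 and 2) and Mir669g (2 and 2).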
